A study of Mus musculus with 8 samples.

Results

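The endoplasmic reticulum (ER) genes of protein folding, translocation and stress were followed in the pancreas of lean and obese mice. The 50 genes were chosen by symbol, as a list that spans ER chaperones, disulfide isomerases, the translocation machinery, signal peptidase, ER-associated degradation (ERAD), stress regulators and KDEL receptors, and all 50 were found among the 15047 genes of the deposited expression table. RNA-Seq was made from pancreas of 8 male mice, 3 on low-fat diet (LFD), 3 on high-fat diet (HFD) and 2 leptin-deficient ob/ob mice. The labels name the LFD and HFD mice C57BL/6 WT and the ob/ob mice C57BL/6J, and the study's text describes a common C57BL6/J background. Feeding started at 4 weeks of age and lasted 10 weeks, with 60% of calories from fat in HFD. The ob/ob mice differed from the other groups in genotype. They were on a standard diet and not on LFD, so in their comparison with LFD genotype and diet cannot be told apart. As the study describes the sequenced mice, they carried orthotopic transplants of mT organoids, which are neoplastic cultures of mouse pancreas. Whole tissue was sequenced, so that host pancreas, graft, stroma and immune cells share each library. HFD and ob/ob mice are together called obese mice below.

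The ER is where secreted proteins enter the secretory route. The signal recognition particle brings nascent chains to the SEC61 channel, signal peptidase removes the signal peptide, and chaperones and disulfide isomerases fold the chain. Chains that do not fold are moved out and degraded by ERAD, and KDEL receptors return escaped chaperones from the Golgi. The acinar cell, which makes the digestive enzymes, is rich in this machinery. When unfolded proteins accumulate, the sensors IRE1, PERK and ATF6 start the unfolded protein response (UPR), in which XBP1, ATF6 and ATF4 raise chaperone and ERAD genes, and CHOP, the product of Ddit3, is induced when the stress persists.

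Expression is given as the rlog value, a regularised log2 count corrected for library size. A difference of 1 on this scale is a doubling, and the scale narrows differences between weakly expressed genes. Levels of different genes were not compared, because the values are not per length. Read depth is unknown from these values, and no counting error can be given.

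The mice of a group were not alike. The mean rlog of 29 acinar marker genes was 17.47, 17.72 and 18.01 in the LFD mice. The HFD mice had 17.81, 15.70 and 13.81, in the order of their replicate numbers, and the ob/ob mice 17.11 and 14.11. HFD replicate 1 was thus within the range of the LFD mice, and HFD replicate 3 and ob/ob replicate 2 were the lowest. Pancreas was the labelled tissue, and acinar genes were detected in every mouse. Of the fibroblast markers 9 of 10, and of the macrophage markers 9 of 10, were higher in obese mice at an unadjusted p under 0.05. For all genes this share was 14.5%. The mean fibroblast marker level of a mouse was 9.57 to 10.09 on LFD, 10.44 to 11.28 on HFD and 10.79 to 11.80 in ob/ob mice. The mean macrophage marker level was 8.90 to 9.35 on LFD, 9.69 to 10.48 on HFD and 10.43 to 11.13 in ob/ob mice. The part of these cell types in the levels of the ER genes was not tested beyond the acinar covariate described below. In bulk tissue, fewer cells of a type and less RNA per cell cannot be told apart.

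Most of the ER genes were at a lower mean level in obese mice. The difference between the mean of HFD and ob/ob and the mean of LFD was below 0 in 45 of the 50 genes, with a median of -0.76, against a median of 0.04 over all genes. No gene of the 50 passed the limma test at a Benjamini-Hochberg adjusted p under 0.05 in this comparison, and the adjusted p of the 50 ran from 0.107 to 0.942. That was also true of the whole table, in which 0.0% of genes were called. At an unadjusted p under 0.05, 28 of the 50 ER genes were lower and 0 were higher, where 10.9% of all genes were lower and 14.5% were higher. The number with such a p was 17 without LFD replicate 2 and 14 without LFD replicate 3. No share of all genes is given for these fits. Over all fits that left out 1 mouse, the median over the 50 genes ran from -0.89 to -0.55. All 5 obese mice were below all 3 LFD mice for 17 of the 50 genes, where 9.05% of all genes had this order, and above them for 0, where 9.4% of all genes had that order. The lower levels were therefore a matter of unadjusted calls and of the order of the mice, and not of genes called one by one.

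Each obese group was compared with the same LFD mice. In HFD against LFD, 22 of 50 genes were lower and 0 higher at an unadjusted p under 0.05, with a median difference of -0.70, while 8.35% of all genes were lower and 11.5% higher. Leaving out 1 LFD or HFD mouse gave 7 to 39 genes with such a p, counted in either direction. There were 7 without HFD replicate 2, 8 without HFD replicate 3, 10 without LFD replicate 2 and 8 without LFD replicate 3. Without HFD replicate 1 there were 39, of which 38 were lower and 1 higher. In that fit 2461 of all 15047 genes were lower and 2984 higher. For the other fits that left out a mouse no share of all genes is given. In ob/ob against LFD, 18 of 50 were lower and 0 higher, with a median of -0.75, while 7.18% of all genes were lower and 11.6% higher. The number was 8 and 7 without LFD replicates 2 and 3, for which no share of all genes is given. Without HFD replicate 1 it was 35, all lower, and in that fit 1757 of all 15047 genes were lower and 2318 higher. With a single ob/ob mouse left, the median difference was -1.07 without ob/ob replicate 1 and -0.44 without ob/ob replicate 2. Between ob/ob and HFD, 0 of 50 genes passed in either direction, where 1.63% of all genes were lower and 2.28% higher, and the median difference was -0.07. For none of these 3 comparisons did the limma test call a gene of the 50 or any other gene at an adjusted p under 0.05 (0.0% of all genes). The differences between ob/ob and HFD ran from -0.36 to 0.30 over the 50 genes.

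The spread lay within the obese groups. Relative to the LFD mean, the median over the 50 genes was -0.17, 0.01 and 0.16 in the LFD mice. The HFD mice had -0.15, -0.85 and -1.11 (replicates 1, 2 and 3), and the ob/ob mice -0.44 and -1.07. HFD replicate 3 or ob/ob replicate 2 was the lowest of the 8 mice for 43 of the 50 genes (86.0%, against 34.3% of all genes), and an LFD mouse was the highest for 44 (88.0%, against 36.1%). HFD replicate 1 was below all LFD mice for 20 genes, within their range for 29 and above it for 1 (40.0% below and 2.0% above, against 27.8% and 26.4% of all genes). The range of values was wider among obese than among LFD mice for 45 of 50 genes, with median ranges of 1.14 and 0.36, but a wider range was also found for 83.5% of all genes, and there were 5 obese mice and 3 LFD mice.

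**Figure D1:**
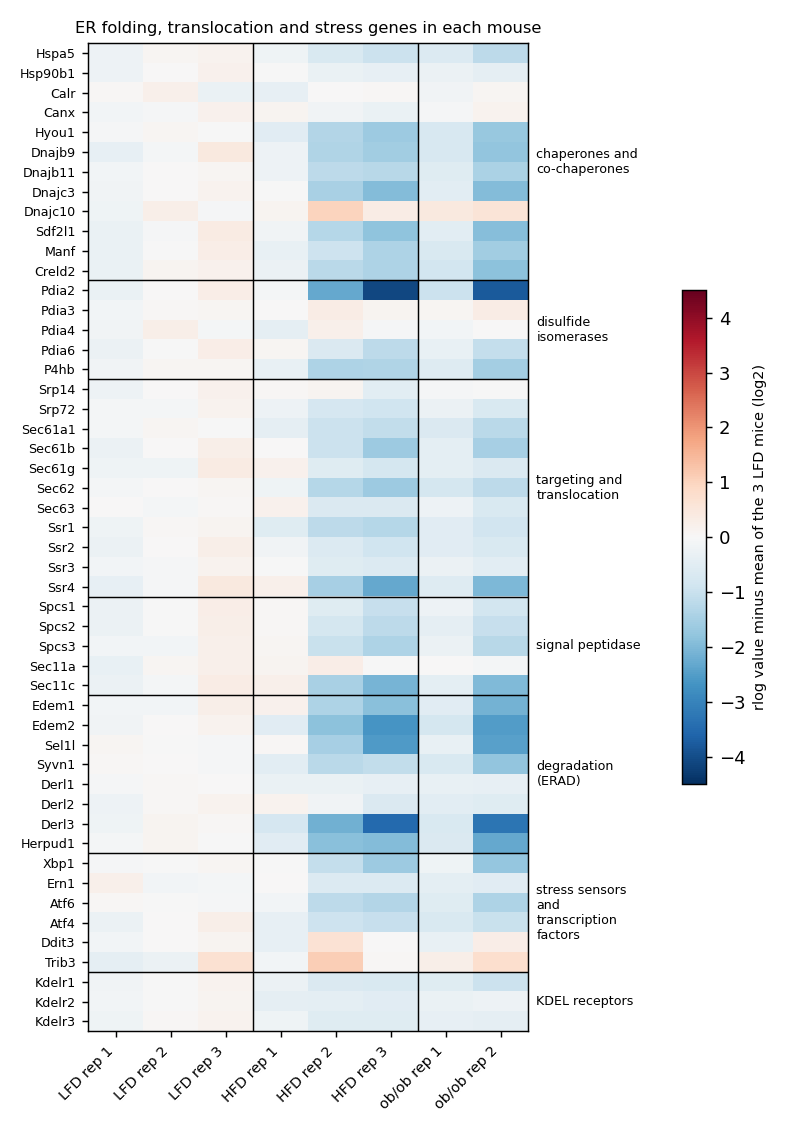
rlog value of each of the 50 ER genes (rows, by role) in each of the 8 mice (columns), as the difference from the mean of the 3 LFD mice (colour, log2 units, blue lower and red higher). HFD replicates 2 and 3 and ob/ob replicate 2 are blue across most rows, HFD replicate 1 is within the range of the LFD mice in 29 rows, and Pdia2, Derl3, Edem2 and Sel1l are the darkest rows.

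The calls depended on which mice were included. Without HFD replicate 1, 33 of the 50 genes were lower and 0 higher in obese mice at an adjusted p under 0.05 by limma. In that fit 9.35% of all genes were lower (1407 of 15047) and 1919 were higher. Against LFD alone, HFD replicates 2 and 3 gave 30 lower and 0 higher genes of 50, where 7.84% of all genes were lower (1180) and 1632 were higher. Without this mouse the other 4 obese mice were below all LFD mice for 39 of 50 genes, against 17.3% of all genes. Leaving out 1 LFD mouse or 1 of the other HFD mice gave 0 genes at an adjusted p under 0.05. Calls are not given for the fits that leave a single ob/ob mouse. HFD replicate 1 is the obese mouse whose acinar level was within that of the LFD mice.

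The direction depended on what a gene was measured against. The rlog values are scaled so that the typical gene stays level, and on that scale most ER genes were lower. Of the sum of all values on the linear scale, the 50 genes made 0.530%, 0.537% and 0.461% in the LFD mice. They made 0.432%, 0.675% and 0.968% in the HFD mice and 0.522% and 0.894% in the ob/ob mice. The acinar marker genes made 61.0% to 63.2% of that sum in LFD mice, 60.1%, 40.6% and 21.3% in the HFD mice, and 57.5% and 24% in the ob/ob mice. In the 3 mice with the least acinar RNA, ER genes were thus low against the typical gene and high as a share of the sum. The acinar genes are part of that sum, so a lower acinar share leaves a larger share to all other genes together. The higher share is therefore not a result about the ER genes in particular. Their share of the sum without the acinar genes was not computed.

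A sequence shared by some of these genes is the ER stress element (ERSE), the letters CCAAT and CCACG with 9 bases between them. NF-Y is known to bind CCAAT, and ATF6 or XBP1 to bind CCACG. It was searched on both strands in RefSeq promoters on GRCm38.p6, which cover 250 bases before to 50 after the gene start. Of the 50 genes, 41 had a promoter entry, and 9 of these (22%) held an ERSE, namely Hspa5, Hsp90b1, Calr, Canx, Dnajc3, Creld2, Pdia6, Syvn1 and Derl3. Counted by gene, 20 of the 11685 measured genes with an entry held an ERSE (0.171%), and these 20 include the 9. Among all 32851 promoter entries 39 (0.119%) held it, and among 60 other genes of the pathway with an entry there were 0. The related ERSE-II, ATTGG and CCACG with 1 base between them, was in 12 promoters (0.0365%), which included Dnajb11 and Herpud1. ATTGG is CCAAT read on the other strand, so the motifs share their letters and differ in order and spacing. None of the 41 genes with an entry held both. A match of letters is not a binding site. A missing match is not the absence of an element, because only these exact letters within the entries were searched. The following stretches, from 6 of the 9 genes with an ERSE and from Herpud1, are shown because genes that hold these letters had differences from near 0 to below -2, as described below. They are written 5′ to 3′ on the strand of the gene, with CCAAT and CCACG in capitals, and CGTGG before ATTGG is the element on the other strand. Distances are counted to the start used by the RefSeq entry, which can differ from other annotations. In Gencode the Hspa5 gene starts at chr2:34771970, so there its element lies after the start.
Hspa5, chr2:34772013-34772055, plus strand, 46 bases before the start: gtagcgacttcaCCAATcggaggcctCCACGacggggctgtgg
Creld2, chr15:88819508-88819550, plus strand, 107 bases before the start: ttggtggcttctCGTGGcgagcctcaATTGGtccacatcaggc
Syvn1, chr19:6046520-6046562, plus strand, 25 bases before the start: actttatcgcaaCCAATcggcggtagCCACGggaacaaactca
Derl3, chr10:75893230-75893272, plus strand, 137 bases before the start: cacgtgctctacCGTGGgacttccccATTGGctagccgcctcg
Calr, chr8:84847063-84847105, minus strand, 143 bases before the start: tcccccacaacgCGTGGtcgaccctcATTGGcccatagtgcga
Canx, chr11:50325788-50325830, minus strand, 126 bases before the start: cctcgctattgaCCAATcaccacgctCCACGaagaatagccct
Herpud1 (ERSE-II), chr8:94386365-94386399, plus strand, 41 bases before the start: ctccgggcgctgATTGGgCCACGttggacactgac

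The genes with an ERSE spanned a wide range of differences. In obese against LFD mice, 5 of the 9 were lower at an unadjusted p under 0.05, where 10.9% of all genes were lower. Their median difference was -0.75, with a range from -2.06 (Derl3) to -0.04 (Canx). Of the 32 genes with a promoter entry and no ERSE found, 16 were lower, with a median of -0.66 and a range from -2.27 to 0.50. Hspa5, Dnajc3, Creld2, Syvn1 and Derl3 were the 5, and Hsp90b1, Calr, Canx and Pdia6 were the others.

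Among the 12 chaperones and co-chaperones, 8 were lower in obese mice at an unadjusted p under 0.05 and 0 were higher, with a median difference of -0.97. Of all genes, 10.9% were lower and 14.5% higher in this comparison. Hyou1, a large HSP70-type chaperone of the ER lumen, had rlog values of 12.41, 12.55 and 12.44 on LFD, 11.96, 11.14 and 10.83 on HFD and 11.75 and 10.75 in ob/ob mice. The obese mice did not overlap with the LFD mice, HFD replicate 1 included, while HFD and ob/ob mice overlapped. Obese mice differed from LFD mice by -1.19 ± 0.31 (SE, adjusted p = 0.107 by limma), -1.16 ± 0.34 for HFD alone and -1.22 ± 0.38 for ob/ob alone.

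Hspa5, which encodes BiP, the main ER chaperone and the one that holds the UPR sensors inactive, was at 13.88, 14.22 and 14.27 on LFD, 13.94, 13.45 and 13.17 on HFD and 13.50 and 12.94 in ob/ob mice. Here HFD replicate 1 lay among the LFD mice and the other 4 obese mice lay below them. The difference was -0.75 ± 0.28 (adjusted p = 0.151 by limma). Creld2, an ER protein that is induced by ER stress, was at 10.14, 10.55 and 10.62 on LFD, 10.16, 9.22 and 9.05 on HFD and 9.63 and 8.60 in ob/ob mice. Its HFD replicate 1 was level with the lowest LFD mouse, and the difference was -1.14 ± 0.32 (adjusted p = 0.113 by limma). Manf, an ER protein that is secreted under stress, had 11.02, 11.31 and 11.60 on LFD, 10.98, 10.39 and 9.91 on HFD and 10.63 and 9.74 in ob/ob mice. All 5 obese mice were below LFD, HFD replicate 1 by little, and the mean difference was -1.0 ± 0.29 (adjusted p = 0.118 by limma).

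The BiP co-chaperones had differences of both signs. Dnajb9, Dnajb11 and Dnajc3, whose J domains stimulate BiP, had differences of -1.14, -0.93 and -1.18, and Sdf2l1, a partner of Dnajb11, had -1.14. Dnajc10, a J-domain protein with thioredoxin domains that reduces disulfides of ERAD substrates, was the chaperone with the opposite sign. It was at 9.99, 10.46 and 10.13 on LFD, 10.32, 11.20 and 10.53 on HFD and 10.62 and 10.79 in ob/ob mice. All obese mice except HFD replicate 1 were above LFD, with a difference of 0.50 ± 0.22 (adjusted p = 0.201 by limma). Dnajc10 and the lectin chaperones were singled out after their values were seen.

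The lectin chaperones calreticulin and calnexin, which bind monoglucosylated glycoproteins, were near level. Calr was at 11.89, 12.05 and 11.52 on LFD, 11.44, 11.83 and 11.86 on HFD and 11.67 and 11.92 in ob/ob mice, and Canx at 12.46, 12.53 and 12.78, at 12.73, 12.43 and 12.28, and at 12.53 and 12.73. The groups overlapped in both. The differences were -0.07 ± 0.19 for Calr and -0.04 ± 0.19 for Canx, and quantile normalization turned both, to 0.21 and 0.28. Hsp90b1, which encodes the HSP90 protein of the ER lumen, had -0.29 ± 0.20 and 0.07 under quantile normalization. These 3 promoters hold the same ERSE letters as Hspa5, but not in the same arrangement. Hsp90b1 holds the element at 88 and again at 193 bases before the start. The element of Calr and the nearer element of Hsp90b1 are on the other strand, while that of Hspa5 is on the strand of the gene.

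**Figure D2:**
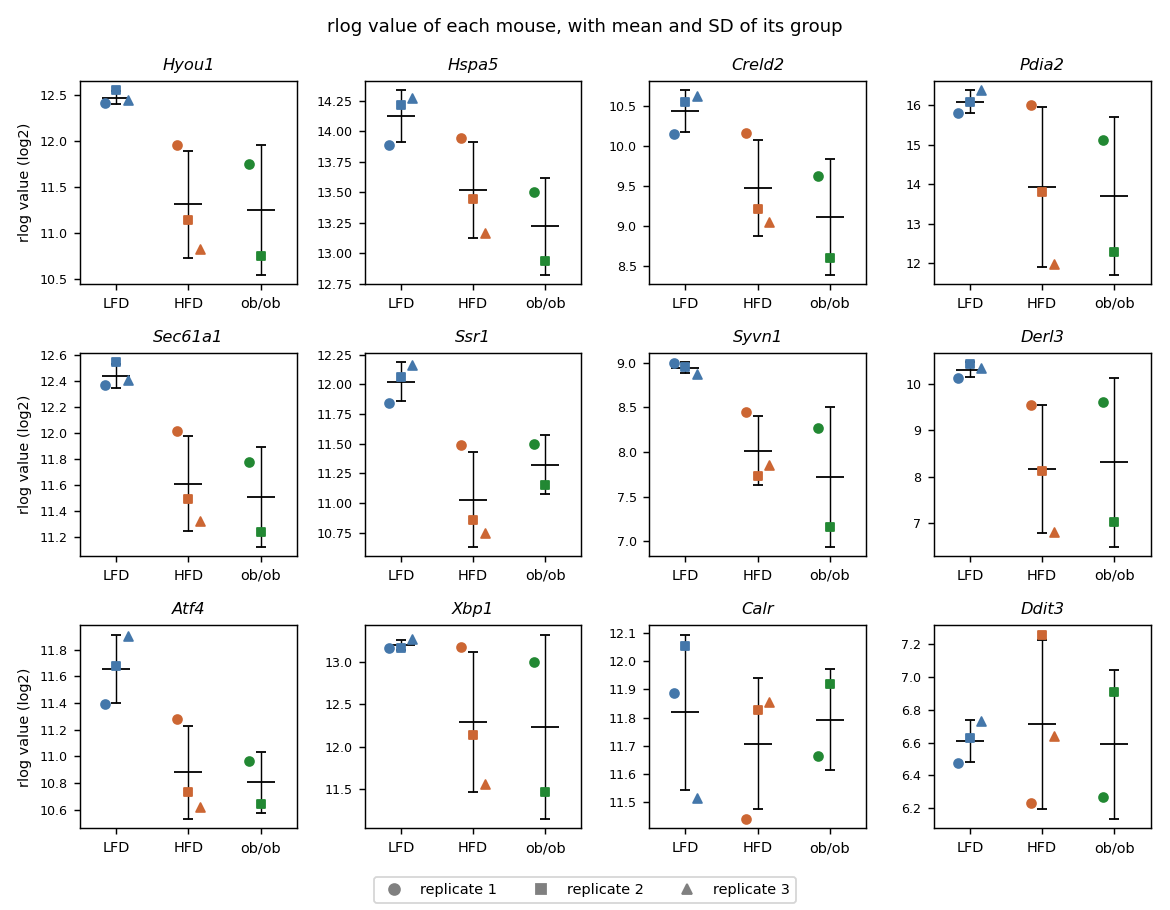
rlog value (vertical axis, log2, own scale in each panel) of 12 ER genes in each mouse, by group, with replicate number as the symbol, the group mean as a dash and its SD as a bar. HFD replicate 1 lies below the 3 LFD mice for Hyou1, Sec61a1, Ssr1, Syvn1, Derl3, Atf4, Calr and Ddit3 and level with or among them for Hspa5, Creld2, Pdia2 and Xbp1.

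Of the 5 disulfide isomerases 2 were lower in obese mice at an unadjusted p under 0.05, against 10.9% of all genes. Their median difference was -0.64, and this role held the lowest difference of the list. Pdia2, the isomerase known as pancreas-specific and made by acinar cells, was at 15.80, 16.09 and 16.38 on LFD, 16.01, 13.80 and 11.98 on HFD and 15.11 and 12.29 in ob/ob mice. HFD replicate 1 was within LFD, and the obese mice were spread over 4.03 log2 units, against 0.58 for LFD mice. The difference was -2.27 ± 0.92 (adjusted p = 0.176 by limma). P4hb, which encodes protein disulfide isomerase itself, was at 14.99, 15.21 and 15.22 on LFD, 14.82, 13.73 and 13.79 on HFD and 14.54 and 13.60 in ob/ob mice. All obese mice were below LFD for P4hb, with -1.04 ± 0.38 (adjusted p = 0.150 by limma). Pdia6, a further thioredoxin-type isomerase, had -0.64 ± 0.31, and HFD replicate 1 was at 12.53, between LFD mice at 12.18 and 12.74.

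Pdia3 and Pdia4, the former the partner of calnexin and calreticulin, did not have lower values of this size. The mean level of Pdia3 was 11.31 ± 0.11 (SD, n = 3) on LFD, 11.47 ± 0.16 (n = 3) on HFD and 11.53 ± 0.17 (n = 2) in ob/ob mice. Pdia4 was at 10.83 ± 0.23, 10.75 ± 0.30 and 10.77 ± 0.11. The differences were 0.19 ± 0.16 and -0.07 ± 0.19, within the spread between mice, and that of Pdia4 was 0.09 under quantile normalization. Both were named after their values were seen. Neither gene had all obese mice on one side of the LFD mice.

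Of the 11 genes of targeting and translocation, 6 were lower in obese mice at an unadjusted p under 0.05, against 10.9% of all genes. Their median difference was -0.58, and all 11 differences were below 0. Sec61a1, the pore subunit of the SEC61 channel, was at 12.37, 12.55 and 12.41 on LFD, 12.02, 11.49 and 11.32 on HFD and 11.78 and 11.24 in ob/ob mice. The obese mice did not overlap with the LFD mice, which lay within 0.17 of each other, while HFD and ob/ob mice overlapped. The difference was -0.88 ± 0.22 (adjusted p = 0.107 by limma). Ssr1, a subunit of the translocon-associated protein complex, was at 11.85, 12.06 and 12.16 on LFD, 11.49, 10.86 and 10.74 on HFD and 11.50 and 11.15 in ob/ob mice, again without overlap between obese and LFD mice. Its difference was -0.85 ± 0.21 (adjusted p = 0.107 by limma). Sec62, which helps short and weakly targeted chains into the channel, had 11.21, 11.31 and 11.39 on LFD, 11.10, 10.03 and 9.67 on HFD and 10.50 and 10.13 in ob/ob mice. All obese mice were lower, with -1.01 ± 0.30 (adjusted p = 0.119 by limma).

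The subunits of one complex spanned a range of differences. In the SEC61 channel the difference was -0.88 for Sec61a1, -0.91 for Sec61b and -0.45 for Sec61g. In the translocon-associated complex it was -0.85 for Ssr1, -0.58 for Ssr2, -0.38 for Ssr3 and -1.25 for Ssr4. Ssr4 was at 12.49 in HFD replicate 1, within LFD at 11.90 to 12.69, and at 9.95 in HFD replicate 3. In the signal recognition particle Srp72 had -0.55 ± 0.19 and Srp14 -0.06 ± 0.19. No test between subunits was made.

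For signal peptidase, 0 of 5 genes had all 5 obese mice below LFD, an order found for 9.05% of all genes. Of these 5 genes 1, Spcs2, was lower at an unadjusted p under 0.05, against 10.9% of all genes (median of the 5, -0.68). With 5 genes, neither count sets this role apart from the share of all genes. Spcs2, a noncatalytic subunit, was at 10.81, 11.04 and 11.31 on LFD, 11.11, 10.27 and 9.88 on HFD and 10.63 and 10.00 in ob/ob mice. HFD replicate 1 was among LFD mice, and the difference was -0.68 ± 0.29 (adjusted p = 0.189 by limma). The catalytic subunits Sec11a and Sec11c went apart. Sec11c was at 11.49, 11.69 and 12.11 on LFD, 11.98, 10.29 and 9.66 on HFD and 11.31 and 9.77 in ob/ob mice, a difference of -1.17 ± 0.53, and Sec11a had 0.05 ± 0.17. Spcs3 had -0.76 ± 0.36, with HFD replicate 1 at 11.59, within LFD at 11.39 to 11.75.

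ERAD had the lowest median of the 7 roles, -1.26. Of its 8 genes 5 were lower in obese mice at an unadjusted p under 0.05, against 10.9% of all genes. The same 5, Edem2, Syvn1, Derl1, Derl3 and Herpud1, had all 5 obese mice below LFD, an order found for 9.05% of all genes. Syvn1, which encodes HRD1, the ubiquitin ligase at the core of ERAD, was at 9.0, 8.96 and 8.87 on LFD, 8.45, 7.74 and 7.85 on HFD and 8.27 and 7.16 in ob/ob mice. The LFD mice were within 0.12 of each other and all obese mice were below them. The difference was -1.08 ± 0.27 (adjusted p = 0.107 by limma). Herpud1, an ER membrane partner of HRD1 induced by the UPR, was at 12.70, 12.92 and 12.78 on LFD, 12.29, 10.92 and 10.84 on HFD and 12.13 and 10.51 in ob/ob mice. The difference was -1.46 ± 0.43 (adjusted p = 0.119 by limma), and the ERSE-II printed above is in its promoter.

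Edem2, which trims mannose from misfolded glycoproteins, was at 11.94, 12.11 and 12.25 on LFD, 11.58, 10.24 and 9.43 on HFD and 11.29 and 9.6 in ob/ob mice. Its difference was -1.67 ± 0.51 (adjusted p = 0.122 by limma), and no obese mouse reached the lowest LFD mouse. Derl3, a derlin of secretory cells that is induced by XBP1, was at 10.12, 10.44 and 10.34 on LFD, 9.56, 8.13 and 6.82 on HFD and 9.6 and 7.02 in ob/ob mice. The lowest and the highest obese mouse were 2.78 apart, and the difference was -2.06 ± 0.68 (adjusted p = 0.133 by limma). Derl1, a derlin of wide expression, had little spread, with 10.44 ± 0.05 (SD) on LFD, 10.12 ± 0.03 on HFD and 10.09 ± 0.04 in ob/ob mice. Sel1l, the HRD1 adaptor, was singled out after its values were seen: it was at 14.32, 14.22 and 14.21 on LFD, 14.30, 12.76 and 11.70 on HFD and 13.92 and 11.81 in ob/ob mice. So HFD replicate 1 was level with LFD for Sel1l and below LFD for Syvn1, although both products act in 1 complex.

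Of the 6 stress sensors and transcription factors 3 were lower at an unadjusted p under 0.05, against 10.9% of all genes. The median difference of the 6 was -0.63. Atf4, the transcription factor of the PERK branch, was at 11.39, 11.68 and 11.90 on LFD, 11.28, 10.74 and 10.62 on HFD and 10.97 and 10.64 in ob/ob mice. All obese mice were below LFD, HFD replicate 1 by the least, and the difference was -0.81 ± 0.21 (adjusted p = 0.107 by limma). Atf6, the sensor that is cut to a transcription factor in the Golgi, was at 11.42, 11.38 and 11.35 on LFD, 11.25, 10.20 and 10.08 on HFD and 10.85 and 9.99 in ob/ob mice. All obese mice were below LFD here too, with -0.92 ± 0.30 (adjusted p = 0.133 by limma).

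Xbp1, whose spliced form drives the secretory program, was at 13.17, 13.17 and 13.27 on LFD, 13.18, 12.13 and 11.56 on HFD and 13.01 and 11.46 in ob/ob mice. HFD replicate 1 was within LFD and ob/ob replicate 1 close to it, and the difference was -0.94 ± 0.43 (adjusted p = 0.210 by limma). The values are per gene, so the spliced and unspliced forms of Xbp1 were not told apart. Ern1, which encodes IRE1, the enzyme that splices Xbp1, had 9.48 ± 0.20 on LFD, 9.08 ± 0.37 on HFD and 9.0 ± 0.05 in ob/ob mice, with a difference of -0.44 ± 0.19 (adjusted p = 0.195 by limma).

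Ddit3 and Trib3, CHOP and one of its targets, are the usual signs of unresolved stress. Ddit3 was at 6.48, 6.63 and 6.73 on LFD, 6.23, 7.26 and 6.64 on HFD and 6.27 and 6.91 in ob/ob mice. The lowest and the highest mouse were both on HFD, and the difference was 0.04 ± 0.28 (adjusted p = 0.942 by limma), which turned to -0.05 with values centred on the median of each mouse. Trib3 was at 4.83, 4.98 and 5.92 on LFD, 5.11, 6.35 and 5.30 on HFD and 5.51 and 5.99 in ob/ob mice. One LFD mouse was among the higher values of Trib3, the groups overlapped, and the difference was 0.43 ± 0.38 (adjusted p = 0.487 by limma). No difference of Ddit3 or Trib3 between obese and LFD mice was detectable with this number of mice.

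All 3 KDEL receptors were lower at an unadjusted p under 0.05, against 10.9% of all genes. Their differences were small and had little spread. Kdelr1 was at 9.61, 9.73 and 9.91 on LFD, 9.50, 9.09 and 9.07 on HFD and 9.20 and 8.79 in ob/ob mice. The obese mice were all below LFD, with -0.64 ± 0.17 (adjusted p = 0.109 by limma). Kdelr2 had -0.35 ± 0.13 and Kdelr3 -0.41 ± 0.16. For Kdelr2 the 5 obese mice were between 9.73 and 10.01 and LFD between 10.10 and 10.36, and for Kdelr3 HFD replicate 1 at 8.23 was level with the lowest LFD mouse at 8.22. The median range over the obese mice was 0.35 for these receptors, against 1.96 for the ERAD genes.

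**Figure D3:**
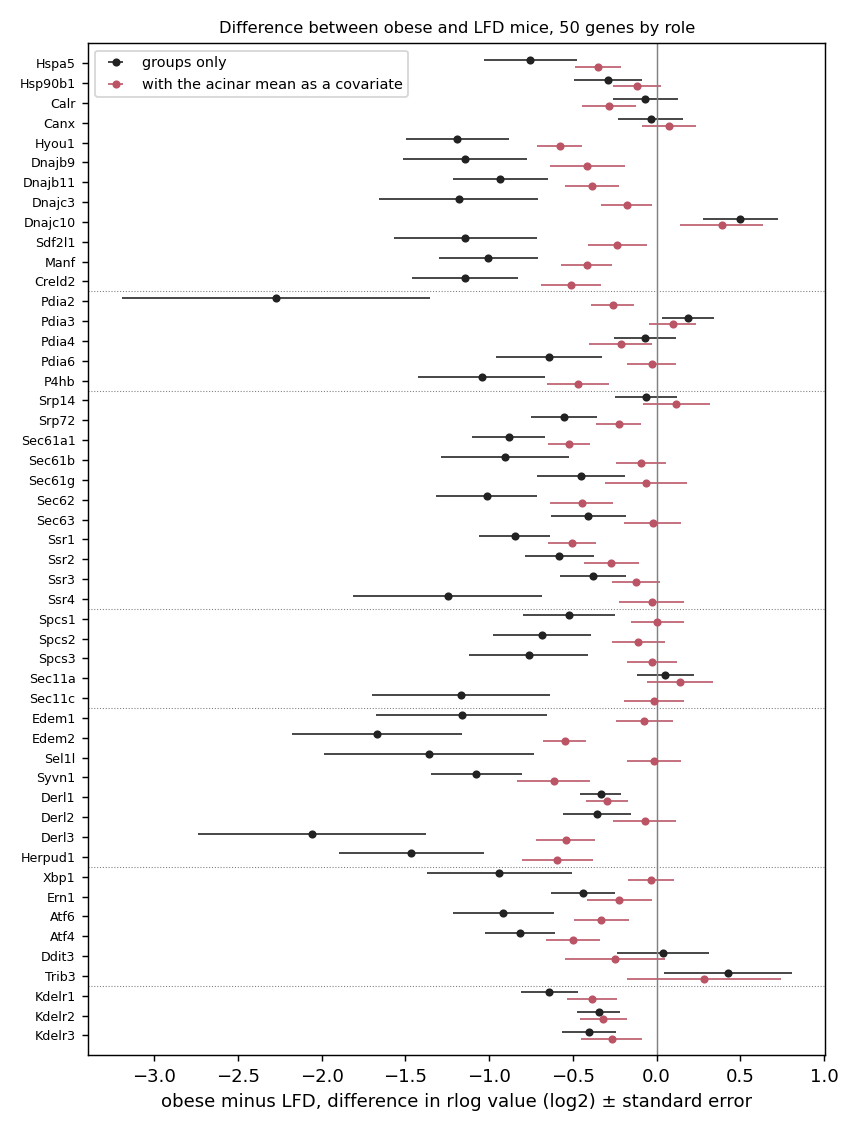
Difference between obese (mean of HFD and ob/ob) and LFD mice in rlog value (horizontal axis, log2) for the 50 ER genes, by role, with the standard error as a bar, for the fit on groups alone (black) and with the acinar mean as covariate (red). Pdia2 moves from -2.27 to -0.26 and Sel1l from -1.36 to -0.01, while Syvn1, Herpud1 and Hyou1 lie near -0.6 with the covariate.

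The level of acinar RNA moved with the ER genes, and the differences with it as a covariate varied between genes. When the mean level of the 29 acinar genes was added to the fit, 17 of the 50 genes were lower in obese mice at an unadjusted p under 0.05 and 0 were higher, where 4.43% of all genes were lower, and the median difference was -0.23 in place of -0.76. The 17 were all among the 28 found without the covariate, and 0 passed an adjusted p under 0.05 by limma. The genes furthest below 0 with the covariate were Syvn1 (-0.61 ± 0.22), Herpud1 (-0.59 ± 0.21), Hyou1 (-0.58 ± 0.14), Edem2 (-0.55 ± 0.13), Derl3 (-0.54 ± 0.18), Sec61a1 (-0.52 ± 0.13), Creld2 (-0.51 ± 0.18), Ssr1 (-0.51 ± 0.14) and Atf4 (-0.50 ± 0.16). Genes near 0 were Xbp1 (-0.03 ± 0.14), Sec11c (-0.01 ± 0.18), Sel1l (-0.01 ± 0.16), Spcs3 (-0.03 ± 0.15) and Pdia6 (-0.03 ± 0.15).

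By role, the difference from 0 with the covariate was largest for ERAD, with 5 of 8 genes lower and a median of -0.42, and smallest for signal peptidase, with 0 of 5 and a median of -0.01. It was 5 of 12 and -0.32 for chaperones, 1 of 5 and -0.22 for disulfide isomerases, 3 of 11 and -0.12 for translocation, 1 of 6 and -0.24 for stress regulators and 2 of 3 and -0.32 for KDEL receptors. At an unadjusted p under 0.05, 4.43% of all genes were lower with the covariate. The roles were not tested against each other. Acinar level and group overlap in these 8 mice, because the lowest acinar levels are all in obese mice, so obesity and acinar level cannot be fully told apart. HFD replicate 1 is the obese mouse with an acinar level within that of LFD mice. In that mouse the median over the ERAD genes was -0.39 from the LFD mean and over the signal peptidase genes 0.08.

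**Figure D4:**
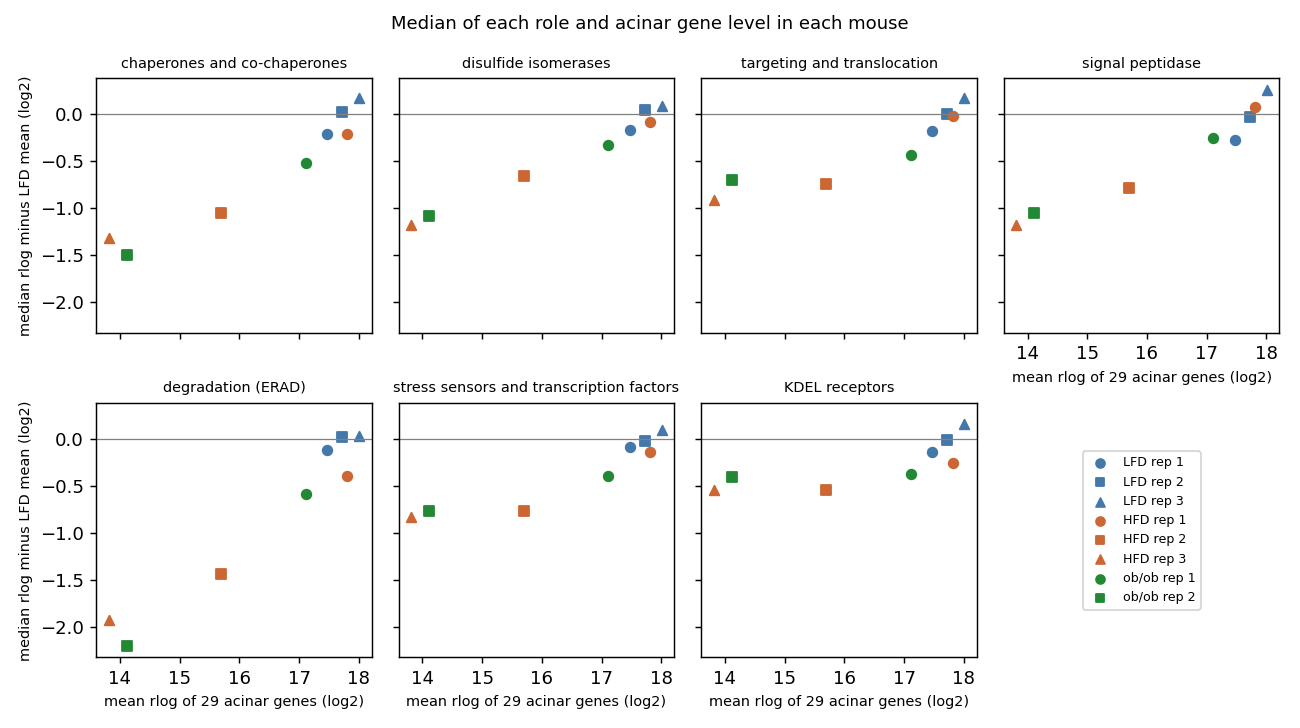
Median rlog value of the genes of each role, relative to the LFD mean (vertical axis, log2), against the mean rlog of 29 acinar genes (horizontal axis, log2), 1 panel per role and 1 point per mouse. The ERAD panel runs from 0.03 down to -2.20 and the KDEL receptor panel from 0.16 to -0.54, and HFD replicate 1 lies below all LFD points for ERAD, stress regulators and KDEL receptors.

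Other genes of the pathway were also mostly at a lower mean level in obese mice. Of 76 further genes, covering other folding enzymes, oligosaccharyltransferase, COPII transport, ERAD and the integrated stress response, 40 were lower in obese mice at an unadjusted p under 0.05 and 4 were higher, with a median of -0.48, where 10.9% of all genes were lower and 14.5% higher. By list, 10 of 17 folding enzymes, 8 of 16 genes of oligosaccharyltransferase and the translocon, 8 of 11 of COPII and early transport, 5 of 7 of ERAD, 5 of 14 of PERK and the integrated stress response and 4 of 11 other ER stress regulators were lower. Those with the lowest test statistic were Sec23b, a COPII coat subunit, at -0.95 ± 0.22 (adjusted p = 0.105 by limma), Srprb, a subunit of the signal recognition particle receptor, at -0.86 ± 0.21, and Os9, an ERAD lectin, at -1.18 ± 0.32. Those with the highest were Fkbp14, a prolyl isomerase of collagen folding, at 0.99 ± 0.30, Bcl2l11, the proapoptotic BIM, at 0.95 ± 0.35, and Eif2ak2, the double-stranded RNA kinase PKR, at 0.65 ± 0.23 (adjusted p = 0.121, 0.149 and 0.144 by limma).

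Bhlha15, which encodes MIST1, the factor that sets up the secretory apparatus of acinar cells, was at 11.20, 11.09 and 11.48 on LFD, 11.20, 9.25 and 7.55 on HFD and 10.35 and 7.69 in ob/ob mice. The difference of -2.08 ± 0.81 became -0.25 with the acinar covariate, in the way of Pdia2. Eif2ak3, which encodes PERK, had -0.83 ± 0.40 and 0.02 with the covariate, with HFD replicate 1 at 11.34, above all LFD mice. Ern2, the IRE1 form of mucous epithelia, was near the bottom of the scale in all mice, from 1.87 to 3.28, and its difference was 0.46 ± 0.38. Xbp1 and Derl3 are also on the list of plasma cell markers. Of the 6 measured, 1 was lower and 2 were higher at an unadjusted p under 0.05, where 10.9% and 14.5% of all genes were. The lower 1 was Derl3 itself, so this count does not stand apart from the ER genes. The part of plasma cells in the values of Xbp1 and Derl3 was not tested. In obese against LFD mice, 1 of 8 ductal and 0 of 9 beta cell markers were higher and 0 lower, where 14.5% of all genes were higher. By group these markers differed. In HFD against LFD, 4 of 8 ductal markers were higher and 0 lower (11.5% of all genes higher). In ob/ob against HFD, 5 of 8 were lower and 0 higher (1.63% of all genes lower). Beta cell markers were higher for 3 of 9 in ob/ob against LFD (11.6% of all genes). Against HFD 6 of 9 were higher in ob/ob mice (2.28%), and 0 were lower in either comparison. The part of these cells in the ER gene values was not tested.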

How the data were processed

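RNA-Seq libraries were made from pancreas tissue of 8 mice. According to the study's methods and the submitters' processing notes, the authors quantified transcripts of Gencode M18 on GRCm38.p6 with Salmon 0.11.3, summed them per gene and deposited rlog values of DESeq2 1.22.2, which are on a log2 scale. The filter that left 15047 genes is not given in the sources used here. Groups were taken from the sample titles, and replicates are different mice; whether they shared cages or litters is not stated.

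For each gene the deposited log2 values were compared by limma 3.58.1 in R 4.3.3, with 3 group means over all 8 mice, a trend in the empirical Bayes step and Benjamini-Hochberg adjustment over all genes. The residual SD had a median of 0.34. The step was tested on simulated data. Linear sums are 2 raised to the rlog value. Alternatives were no trend, only the compared groups, a mean rlog of at least 5, median centring, quantile normalization, a replicate block, the acinar mean as a covariate, and each mouse left out. Promoters were RefSeq entries. For 38 of 41, the end of the entry was found within the first bases of a Gencode transcript, and 9 genes had no entry.

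The genes, the lists and the tests were chosen with earlier results of these data known. Named genes are the 3 per role with the largest test statistic between obese and LFD mice, sentinels of the response (Hspa5, Pdia2, Sec61a1, Xbp1, Atf4, Ddit3, Trib3, Derl3 and the KDEL receptors), and of the other pathway genes the 3 in each direction and Bhlha15, Eif2ak3 and Ern2. Other names were added after their values were seen. Salmon shares reads between similar transcripts, so paralogs carry an uncertainty that the values do not show.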

Additional observations from a re-analysis of the deposited data

How the results depend on the processing

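Median centring moved the median of all genes between obese and LFD mice from 0.04 to -0.05, and the median over the 50 ER genes stayed below 0 under every alternative run for HFD, ob/ob and obese against LFD. With the acinar covariate, genes with an unadjusted p under 0.05 numbered 10, 10, 1 and 17 for HFD and ob/ob (each against LFD), for ob/ob against HFD and for obese against LFD, and the medians against LFD were -0.22, -0.23 and -0.23. Of all 15047 genes, 694, 541, 542 and 667 were lower and 896, 963, 648 and 1007 higher, in the same order. With only the groups compared, ob/ob against LFD gave 33, for which no share of all genes is given.

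Over the fits that left out 1 LFD or HFD mouse, unadjusted calls ran from 7 to 39, 7 to 35, 0 to 1 and 14 to 41, in the same order. Adjusted calls ran from 0 to 30 for HFD and 0 to 33 for obese against LFD. These ranges are given without a share of all genes. Over all left-out mice the median of ob/ob against HFD ran from -0.39 to 0.21. A group left with 1 mouse was assumed to vary like the others.

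Single genes turned sign in obese against LFD. Ddit3 was -0.0484 with centring, -0.11 with quantile normalization, -0.25 with the covariate and -0.12 to 0.20 over left-out mice. Quantile normalization gave 0.21 for Calr, 0.284 for Canx, 0.0732 for Hsp90b1 and 0.0858 for Pdia4. The covariate gave 0.0754 for Canx and 0.0224 for Eif2ak3. Over left-out mice Calr ran from -0.22 to 0.0489, Canx from -0.10 to 0.0598 and Pdia4 from -0.15 to 0.0628. The cause was not tested.

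With the replicate block, 23, 23, 0 and 32 genes had an unadjusted p under 0.05 and 0 passed after adjustment. No share of all genes is given for these counts. Mice of the same number did not deviate together in every pair, so the numbers were not taken to pair mice.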
